A study of Arabidopsis thaliana with 16 samples.

Results

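The 8 genes described here encode MYB transcription factors of Arabidopsis thaliana that are grouped as stress-associated: MYB15 (AT3G23250), MYB44 (AT5G67300), MYB73 (AT4G37260), MYB77 (AT3G50060), MYB87 (AT4G37780), MYB95 (AT1G74430), MYB96 (AT5G62470) and MYB122 (AT1G74080). They were chosen by name with earlier peak calls of these same lists in view, so their calls are given as a description and no test was applied to them. Peaks belonged to a gene when the authors' nearest-promoter column named it, at any distance. Of the 8 genes, 4 (MYB15, MYB73, MYB87 and MYB96) had at least 1 peak, and MYB44, MYB77, MYB95 and MYB122 had none in any library. The 4 genes held 40 of the 14333 peaks of the series, at 7 of its 3886 regions, and they stood among 3609 genes with an assigned peak.

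Chromatin came from 12-day-old seedlings of accession Col-0, 2 g per precipitation, and WRKY-bound DNA was recovered with an antiserum that recognises WRKY proteins as a family. The 4 groups, each of 2 biological replicates with 1 peak list apiece, were wild type (WT) untreated at 0 h, WT after 2 h in medium with 1 µM flg22, and the wrky18 wrky40 wrky33 triple mutant (here the mutant) at the same 2 times. Libraries at 0 h are called untreated and those at 2 h treated. The peptide flg22 is a fragment of bacterial flagellin that starts pattern-triggered immunity. No group was kept for 2 h without flg22, so flg22 and elapsed time cannot be told apart. The serum does not separate one WRKY protein from another, so a call in the mutant does not say which protein was bound there.

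WRKY proteins are a plant family of transcription factors with affinity for the W-box, a short element common in promoters of defence genes, and many act on genes for other transcription factors. R2R3-MYB proteins form one of the largest families of such factors in plants. Several of the genes named here are known from stress or defence work: MYB15 activates lignin synthesis genes during immunity and also acts in the cold response, MYB96 links abscisic acid to cuticular wax synthesis and drought tolerance, and MYB122 acts with MYB34 and MYB51 on indole glucosinolate synthesis. MYB44, MYB73 and MYB77 belong to subgroup 22, with roles in abscisic acid signalling, salt stress and auxin-driven lateral root growth. MYB87 belongs to subgroup 14, whose members are known from meristem and root development more than from stress.

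The lists held from 1372 to 2213 peaks each, and each was read as calls. A peak's strength is given as the percentile of the authors' ChIP score within its own list, 100 for the top peak. The lists differ in length and a percentile is a rank, so percentiles describe each list and do not measure a change between lists. The lowest ChIP score in a list was between 9.98 and 10.0, so a weaker signal at any gene is not visible in the lists, and read depth per library was not analysed here. The table of WT 0 h replicate 1 skipped 136 of its 1508 region numbers, so a missing call there can be a missing row.

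MYB15, MYB87 and MYB96 were called in all 8 libraries, against 1.67% of the 27444 nuclear protein-coding genes. A peak in any library was found for 4 of the 8 genes, against 12.4% of protein-coding genes. The same 3 genes were called in both libraries of WT at 0 h, where 2.83% of protein-coding genes were. They were likewise called in both libraries of treated WT (background 3.87%), of the untreated mutant (3.15%) and of the treated mutant (3.83%). Because the genes were picked with calls known, these shares only place the counts and carry no weight as evidence. MYB73 was called in 3 libraries, all of them replicate 1.

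Counted by peak, transcript ends made up the largest class among the 40 peaks. Of them, 16 (40.0%) lay at a transcript end (the authors' class TTS), against 14.2% of all 14333 peaks, and 12 (30.0%) were intergenic, against 15.5%. Promoter peaks numbered 12 (30.0%), against 64.6% of all peaks. All 16 transcript-end peaks came from 2 sites, at MYB87 and MYB96, each called in all 8 libraries. Counted by site, intergenic was the largest class, through MYB15 and MYB73. The 40 peaks share 7 sites, so they are not independent observations and the difference was not tested. Their median score percentile was 51.9 and that of all peaks 50.2.

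**Figure D1:**
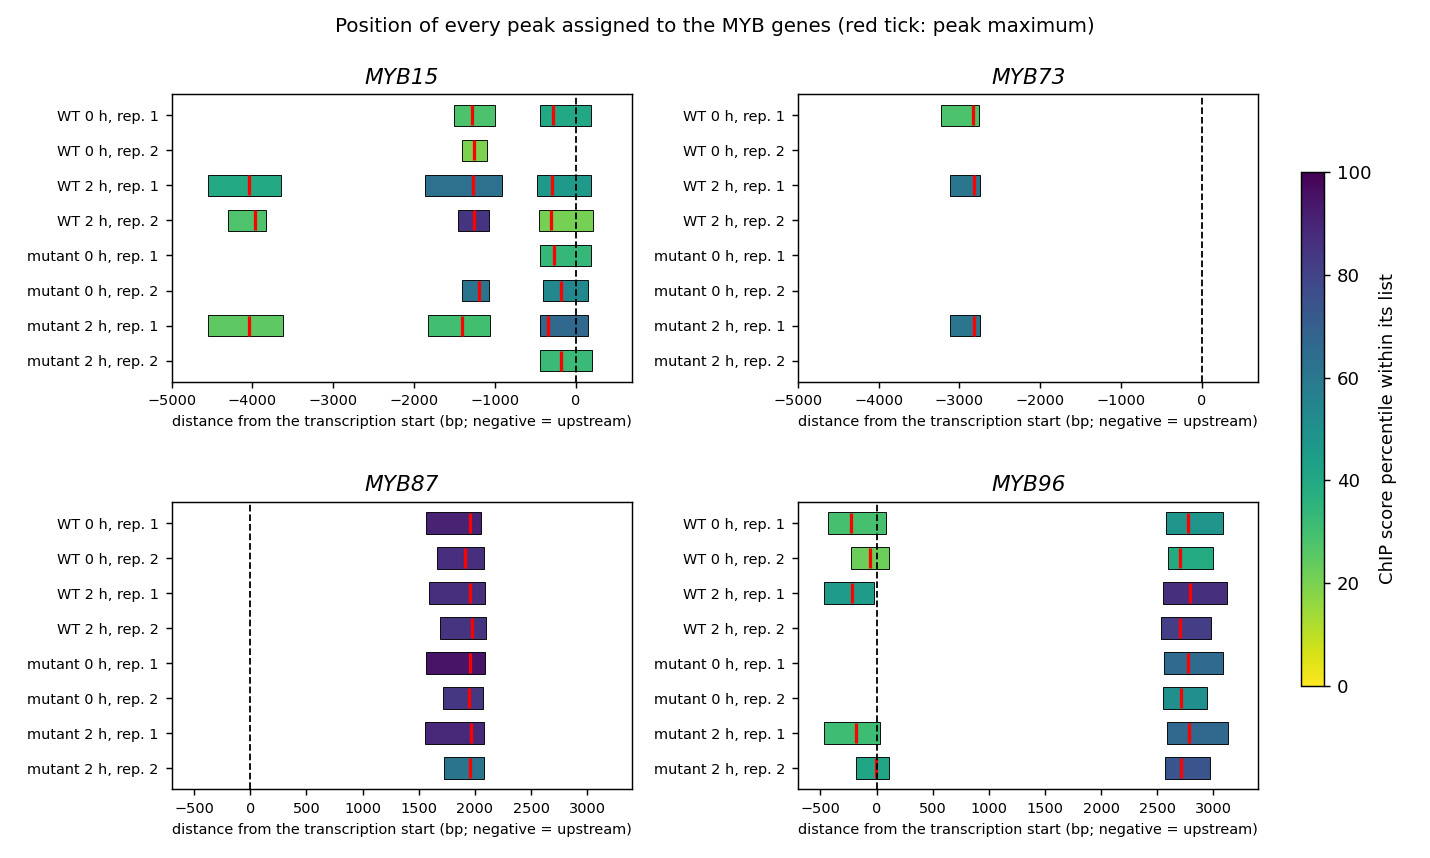
Position of all 40 peaks assigned to MYB15, MYB73, MYB87 and MYB96, 1 row per library, as distance in bp from the transcription start (dashed line; negative is upstream). Bars run from peak start to peak end, red ticks mark the maximum, and colour gives the ChIP score percentile within its list; MYB96 peaks are placed from the start of the transcript that the authors assigned, which differs between its 2 sites. The transcript-end sites of MYB87 and MYB96 are present in 8 of 8 rows, while the far upstream site of MYB15 is present in 3 rows, all at 2 h.

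MYB15 had 3 separate sites upstream of or across its start. The promoter site covered chromosome 3 at 8308732 to 8309422 (TAIR10), with peak centres -146 to -118 bp from the start. A second, intergenic site lay at 8307347 to 8308298, with centres -1440 to -1242 bp from the start. The third, also intergenic, lay at 8304655 to 8305582, with centres -4103 to -4064 bp away. Each of the 3 regions was assigned to MYB15 in every library that called it.

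The promoter site of MYB15 was called in 7 of 8 libraries, all but WT 0 h replicate 2. Its percentile was 40.0 in WT 0 h replicate 1, and 46.2 and 20.8 in replicates 1 and 2 of treated WT. In the mutant it was 33.5 and 53.4 before treatment, and 66.7 and 32.1 after it. The 3 groups with both replicates called overlapped in these values. The 7 percentiles ran from 20.8 to 66.7, and WT at 0 h rests on 1 library.

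The nearer upstream site was called in all 4 WT libraries and in 1 mutant library at each time. In WT its percentile was 28.3 and 19.8 at 0 h (replicates 1 and 2) and 62.9 and 84.8 at 2 h. Both WT lists at 2 h thus ranked it above both WT lists at 0 h. In the mutant it was called in replicate 2 at 0 h (percentile 61.6) and in replicate 1 at 2 h (30.3), and not in the other library of either time. The maxima at this site ran from -1400 to -1190 bp, and 4 of the 6, all from WT, lay between -1276 and -1262 bp.

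The far upstream site of MYB15 was the only site of these genes gained in WT, meaning that both treated WT libraries had it and neither untreated one did. Of all 3221 regions called in any of those 4 libraries, 7.89% met this rule, and 1 of the 7 MYB sites did. It was also called in mutant 2 h replicate 1 and in none of the 4 libraries at 0 h. Its percentiles were low to middling, 39.7 and 28.1 in replicates 1 and 2 of treated WT, and 24.9 in the mutant library. All 3 of these peaks had an ef score (a second score of the authors, of unstated scale) below 5, from 2.51 to 4.37. With peaks of ef score 5 or more, with equal list lengths or with a window of 2000 bp upstream, no site met the rule. The ef cut and the window leave out every peak of this site whatever its calls, so they say nothing about the gain.

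Taken by its strongest peak, MYB15 had a percentile of 29.9 ± 14.3 in untreated WT and 73.8 ± 15.5 in treated WT (SD, n = 2 each). The mutant had 47.6 ± 19.9 untreated and 49.4 ± 24.5 treated (SD, n = 2 each). Ranked by the ef score in place of the ChIP score, the WT means were 53.0 ± 13.1 untreated and 84.7 ± 13.1 treated, and the mutant means 48.2 ± 44.8 and 18.9 ± 1.33 (SD, n = 2 each). By ChIP score the spread between replicates was wide in every group. The strongest site was the promoter site in 4 libraries and the nearer upstream site in the other 4. In both untreated groups it was the promoter site in replicate 1 and the nearer upstream site in replicate 2. In treated WT it was the nearer upstream site in both libraries, and in the treated mutant the promoter site in both. These means and SDs thus mix different sites and do not follow 1 site across groups.

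**Figure D2:**
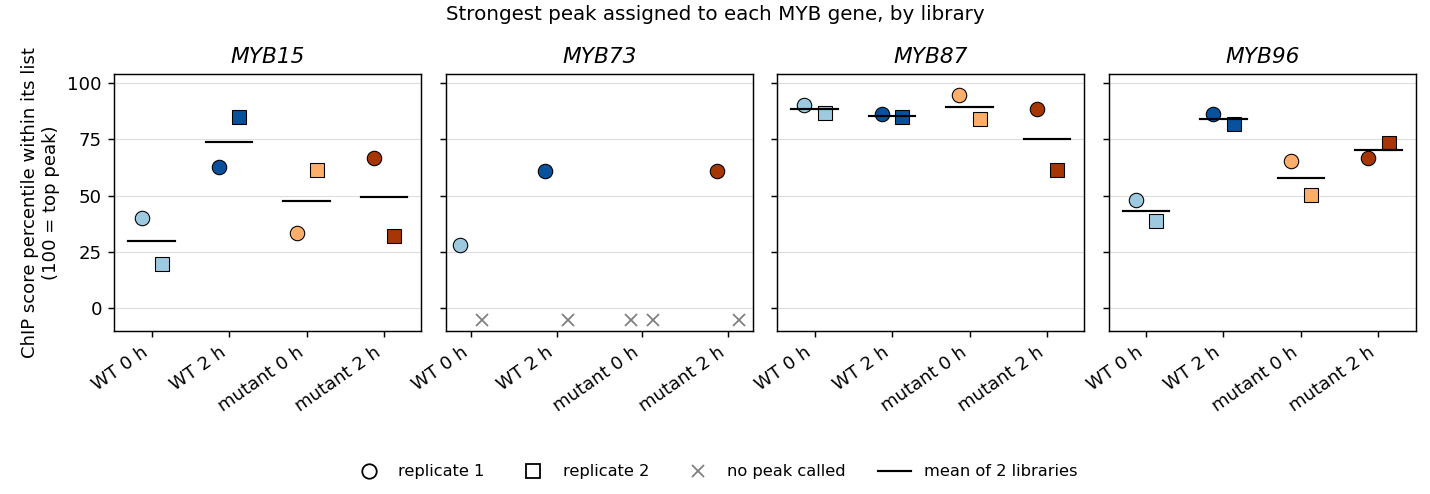
ChIP score percentile of the strongest peak of MYB15, MYB73, MYB87 and MYB96 in each of the 8 libraries (y axis, 100 for the top peak of a list; x axis, the 4 groups). Circles are replicate 1, squares replicate 2, crosses libraries with no peak, and lines the mean where both replicates were called. MYB87 sits between 61.5 and 94.6 throughout, and MYB96 and MYB15 have their highest group mean by this score in WT at 2 h. For MYB15 the strongest peak is not at the same site in all libraries.

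MYB96 had a promoter site and a site that the authors classed at its transcript end. The promoter site covered chromosome 5 at 25080993 to 25081571, with centres -248 to -37 bp from the start of the assigned transcript. Its maxima lay from -226 to -184 bp in replicate 1 libraries and at -54 and -4 bp in replicate 2 libraries. The second covered 25077725 to 25078322, with centres 2748 to 2860 bp downstream of the start of another transcript. The gene lies on the minus strand, as the authors' distances imply, so the smaller coordinates are the downstream ones.

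The site at the MYB96 transcript end was called in all 8 libraries, as were 12.8% of all 3886 regions. Its percentile was 47.9 and 39.0 in replicates 1 and 2 of untreated WT and 86.1 and 81.9 in treated WT. The mutant lists gave it 65.4 and 50.3 untreated, then 66.7 and 73.6 treated. The 4 lists at 2 h all ranked this site above all 4 lists at 0 h, narrowly so in the mutant. By group the percentile was 43.5 ± 6.32 in untreated and 84.0 ± 2.94 in treated WT (SD, n = 2 each). For the mutant it was 57.9 ± 10.7 untreated and 70.1 ± 4.89 treated (SD, n = 2 each). By ef score the 2 WT lists at 2 h ranked it far apart, at percentile 98.5 in replicate 1 and 35.9 in replicate 2. The ef mean was 67.2 in treated WT and 68.6 in the treated mutant. The neighbouring gene on the side of the MYB96 3′ end, AT5G62460, had a promoter site 2895 bp from this site. Both treated WT libraries and mutant 2 h replicate 1 called that promoter site, with percentiles from 23.5 to 61.0, and no untreated library did. In WT, 7.89% of 3221 regions were likewise called in both treated libraries and in neither untreated one.

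The promoter site of MYB96 showed a less regular pattern. Both untreated WT libraries called it (percentiles 29.4 and 22.5), as did replicate 1 of treated WT (45.2). Neither untreated mutant library called it, and both treated ones did (31.3 and 40.7). It thus met the rule for a site gained in the mutant, as did 3.39% of 3272 regions. It also met the rule for a site called in WT alone at 0 h, as did 0.763% of 2489 regions. All 5 peaks ranked below the middle of their lists, and 2 of them had an ef score below 5. With only peaks at or above each list's median ChIP score no site met either rule, since that cut leaves out all 5 peaks. With equal list lengths no site met the mutant 2 h rule. With ef scores of 5 or more no site met the WT 0 h rule.

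MYB87 had the highest mean ChIP score percentile of the 8 genes, 84.6 over the 8 lists. MYB96 ranked above it in mutant 2 h replicate 2, MYB15 equalled it in WT 2 h replicate 2, and by ef score MYB15 had the higher mean in treated WT (84.7 against 67.7). Its single site covered chromosome 4 at 17757462 to 17758000, classed at the transcript end, with centres 1810 to 1902 bp downstream of the start. It was called in all 8 libraries, with percentiles of 90.3 and 86.7 in replicates 1 and 2 of untreated WT and 86.4 and 84.8 in treated WT. For the mutant they were 94.6 and 84.2 untreated and 88.7 and 61.5 treated. All lists but mutant 2 h replicate 2 ranked it between 84.2 and 94.6 with no order by group. The 8 maxima fell within 55 bp, 1916 to 1971 bp from the start. In mutant 0 h replicate 1 the peak ranked 79th by ChIP score but had an ef score of 4.25. The only MYB15 peak of that library, at the promoter, had 4.41, so both genes drop out of it with ef scores of 5 or more.

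The MYB87 site is placed with MYB87 by position alone, through the nearest promoter and the authors' class at the transcript end of MYB87 itself. Which gene the site acts on was not tested. The neighbouring gene on the side of the MYB87 3′ end, ACS8 (AT4G37770, an enzyme of ethylene synthesis), had its own site, called in all 8 libraries. The ACS8 site covered 17748133 to 17748753, which is 8709 bp from the MYB87 site.

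MYB73 had 1 site, on chromosome 4 at 17537265 to 17537746, intergenic and with centres -2992 to -2931 bp from the start. Replicate 1 called it in untreated WT (percentile 28.3), treated WT (60.9) and the treated mutant (61.0). No replicate 2 library called it. The 3 maxima lay within 3 bp. The 3 ef scores ran from 2.57 to 3.06, close to the lowest of their lists. The gene on the upstream side, AT4G37250, had an intergenic site called in all 8 libraries at 17533587 to 17534468, 2797 bp from the MYB73 site, with percentiles from 36.0 to 98.9.

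**Figure D3:**
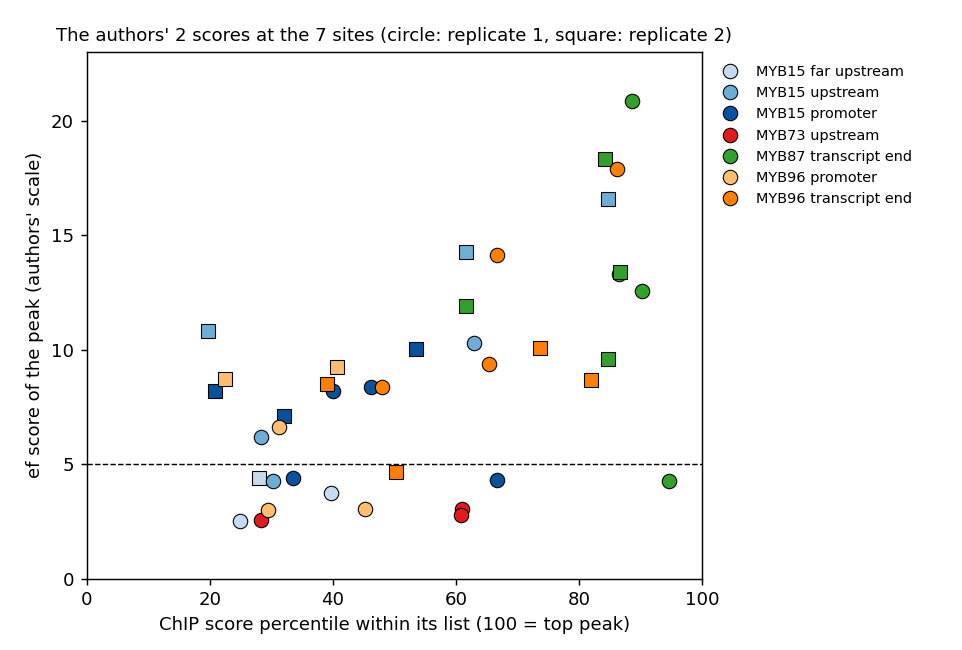
The authors' ef score (y axis, their own scale) against the ChIP score percentile (x axis) for the 40 peaks of the 7 sites, coloured by site, with circles for replicate 1 and squares for replicate 2; the dashed line marks an ef score of 5. All 3 peaks of MYB73 and all 3 of the far upstream site of MYB15 lie below the line.

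Over the 7 sites, 13 of 40 peaks (32.5%) had an ef score below 5, against 15.6% of all peaks. Most of the 13 came from replicate 1 libraries. A fixed ef score stands at different ranks in different lists. A score of 4.37 was at ef percentile 1.98 in WT 2 h replicate 2, and 4.29 was at 19.8 in mutant 2 h replicate 1. The ef score was below 5 in 1 of 8 peaks at each transcript-end site, in 1 of 6 at the nearer upstream site of MYB15, in 2 of 7 at the MYB15 promoter and in 2 of 5 at the MYB96 promoter.

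The 4 genes with no peak were MYB44, MYB77, MYB95 and MYB122. Neither protein-coding neighbour of MYB44 had a peak in any library. Beside MYB77, CYCD3;3 (AT3G50070, a D-type cyclin) had 3 sites. One of them was intergenic at chromosome 3, 18562945 to 18563395, and 3528 to 3619 bp downstream of the CYCD3;3 start. It was called in both treated WT libraries and in mutant 2 h replicate 2, with percentiles from 18.3 to 24.7. Of 3221 regions, 7.89% were called in both treated WT libraries and in neither untreated one. Beside MYB95, AT1G74440 had a promoter site called in both mutant libraries at 0 h and in mutant 2 h replicate 2, and in no WT library. Its percentiles were low, from 8.40 to 30.3. At 0 h, 1.57% of 2489 regions were likewise called in the mutant alone. MYB122 lay between 2 genes with peaks. AT1G74070 on one side had a promoter site in 3 libraries. AT1G74088 on the other side had an intergenic site at chromosome 1, 27859329 to 27859703, called in all 4 replicate 2 libraries and in mutant 2 h replicate 1, with percentiles from 8.22 to 68.5. The nearest-promoter rule gave these sites to the neighbours, and whether they act on the MYB genes was not tested.

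By gene rather than by site, none of the 4 MYB genes with peaks was gained or lost in any comparison. In WT, 7.85% of 2993 genes with a peak were gained and 2.17% lost with treatment, and in the mutant 3.59% of 3089 were gained and 0.55% lost. Between genotypes at 0 h, 1.49% of 2414 genes were called in the mutant alone and 0.663% in WT alone, and at 2 h 1.63% of 3375 and 1.54%. By site, the MYB genes had no site lost in WT (2.11% of regions) or in the mutant (0.55%). None was called in the mutant alone at 0 h (1.57%) or at 2 h (1.61%), and none in WT alone at 2 h (1.70%). These counts rest on 4 genes and on 6 or 7 sites with a call in the libraries compared, and 2 libraries against 2 allow no exact two-sided p below 0.333.

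Among the 125 genes that the RefSeq table names MYB with a number, 33 had a peak in some library, and of these 3 (MYB15, MYB87 and MYB96) were called in all 8. Of the 117 other MYB genes, 2 were called in both libraries of untreated WT (1.71%), 4 in treated WT (3.42%), 5 in the untreated mutant (4.27%) and 7 in the treated mutant (5.98%). For these 117, the share was below that of all protein-coding genes in both WT groups and above it in both mutant groups. Leaving out the 8 genes, of which 3 were called in every group, lowers the share. For all 125 MYB genes it was 4%, 5.6%, 6.4% and 8% in the same order, above the background in all 4 groups. These differences were not tested. In any library, 29 of the 117 (24.8%) had a peak, against 12.4% of protein-coding genes. In subgroup 22, MYB70 had a peak in 1 library beside MYB73 in 3, and no gene of the 4 was called in both libraries of a group. In subgroup 2, which holds MYB13, MYB14 and MYB15, only MYB15 had a peak. The same 12.4% is the background for a peak in any library in the other subgroups. In subgroup 14, which holds MYB87, 5 of 6 genes had one. In subgroup 20, with MYB108, it was 4 of 6, in subgroup 1, with MYB96, 3 of 5, and in subgroup 12, with MYB122, 2 of 6. These counts include MYB87 and MYB96, chosen with calls in view, and genes called in 1 library. Genes called in both libraries of a group were fewer. They numbered 1 or 2 per group in subgroup 14, 0 or 1 in subgroups 20 and 12, and 1 in subgroup 1. Neither MYB95 nor MYB47, its close relative, had a peak.

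**Figure D4:**
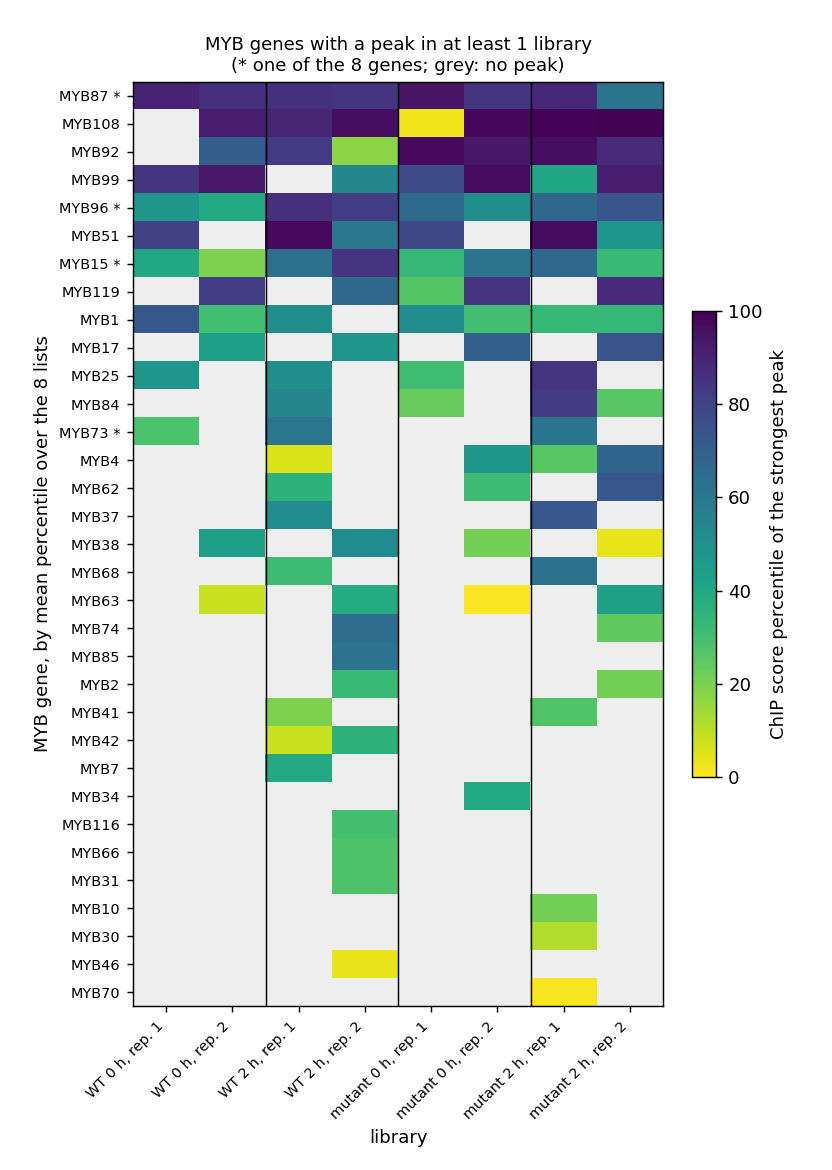
ChIP score percentile of the strongest peak (colour) for the 33 MYB genes that any of the 8 libraries (columns) called, ordered by the mean over the 8 lists with 0 where not called; grey cells have no peak and stars mark the genes described here. MYB87, MYB96 and MYB15 are the only rows without a grey cell, and many rows lower down are filled in 1 replicate number alone.

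The other MYB gene with the highest mean percentile was MYB108 (AT3G06490, also known as BOTRYTIS SUSCEPTIBLE1), with a promoter site called in 7 libraries and percentiles from 2.14 to 99.3. It was absent from WT 0 h replicate 1, the table with missing region numbers. MYB51, which drives indole glucosinolate synthesis, was called in 6 libraries at a site with centres -1062 to -823 bp from its start, and not in replicate 2 of either genotype at 0 h. MYB92 and MYB99 were called in 7 libraries each, and MYB119 in 5. The sites of MYB92, MYB99 and MYB119 were classed by the authors at the transcript ends of other genes.

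The genes whose 8 percentiles came closest to those of MYB87 (Euclidean distance over the 8 libraries, 0 where not called) were AT5G05140, at a distance of 10.1, and CNGC3, a cyclic nucleotide-gated channel, at 12.3. AT5G09876 followed at 25.2. For MYB96 they were AT5G06560 (24.9), AT3G53810 (28.7) and GLIP4 (31.2), and for MYB15 AT4G23010 (38.3), AT3G46690 (42.0) and AT3G29000 (47.6). All 9 genes were called in all 8 libraries, and MYB15, MYB87 and MYB96 each shared their 8 calls with 482 other genes. This is a description of ranks over 8 lists, and it was not tested.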

How the data were processed

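Peak tables of 8 anti-WRKY immunoprecipitations were read, 1 per library and 2 per group. The 8 input libraries served the authors as controls for peak calling, per the labels, and were not used here. Per the labels' protocols, each precipitate came from 2 g of seedlings and was amplified linearly ahead of library construction, which can change the balance between fragments. The submitters' processing notes name the build TAIR10, HOMER, SAMtools 0.1.18, Bowtie2 2.0.5, cutadapt 1.2.1 and FastQC 0.11.2. For the peak caller, tool and settings were not given in the sources used here. The deposited columns hold 3 scores per peak (ChIP score, ef score and a region score), whose scale is not stated, and positions in bp.

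With Python 3.11.15 and pandas 2.3.3, the ChIP score was turned into a percentile within its list. Peaks sharing at least 1 bp were merged into regions across the 8 lists. The authors' distance to the transcription start was found to run from the peak's centre (implied starts agree within 0.5 bp); distances of maxima were computed from those implied starts. A gene or region was gained, lost or called in 1 genotype alone when 2 of 2 libraries in one group called it and 0 of 2 in the other. The merging and call rules were tested on simulated lists. Gene names, gene order and the background of 27444 protein-coding genes came from the RefSeq table of TAIR10.1, in which 3564 of 3609 assigned genes were found, with all 32 genes of the MYB subgroup lists; no coordinates were taken from it.

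The series' design text puts all 4 conditions in each of the 2 biological repeats, so equal numbers mark a shared repeat. The replicate 1 minus replicate 2 difference in calls had a correlation over regions of 0.320 to 0.459 in the 6 pairs of groups. The genes and lists were chosen with earlier results of these data known. Named were all 8 genes, at most 5 other MYB genes called in both libraries of a group by mean percentile, genes of the subgroup lists, and for each gene called in 4 or more libraries the 3 genes with the closest percentiles. Neighbouring genes were added after their calls were seen. Sequence windows around the peaks were not analysed here.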

Additional observations from a re-analysis of the deposited data

How the results depend on the processing

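Shares of all genes or regions are given above for the lists as deposited and the rules as defined. The counts under other settings in this section have no such share beside them, so they cannot be placed against a background. With the counts of genes, 3 were called in both libraries of each group as deposited. With peaks at or above each list's median ChIP score the count was 1 in WT at 0 h. It stayed 3 in treated WT and was 2 in the mutant at 0 h and at 2 h. At this threshold 2 genes were gained in WT, and 1 gene was called in the mutant alone at 0 h. With ef scores of 5 or more it was 0 in the mutant at 0 h. With a window of 2000 bp upstream to 500 bp downstream of the start it was 1 in treated WT and 1 in the untreated mutant. In untreated WT and in the treated mutant it was 2. Under the window 1 gene was gained in the mutant and 1 called in WT alone at 0 h (MYB96 by its promoter site both times). Under the relaxed rule (more libraries of one group than of the other) 1 gene was gained in the mutant and 1 called in WT alone at 0 h (MYB73 in both, from replicate 1). Calls by overlap whatever the assigned gene gave the same counts. With a gene called in at least 1 library, no count of called genes moved beyond 1.5 times.

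The counts of sites gained, lost or called in 1 genotype were added after seeing the data (the number of separate sites was planned). As deposited, 1 was gained in WT, 1 gained in the mutant and 1 called in WT alone at 0 h. With the median threshold these became 2, 0 and 0, with 1 site called in the mutant alone at 0 h and 1 in WT alone at 2 h. The 2 sites gained in WT were then the nearer upstream site of MYB15 and the transcript-end site of MYB96. The far upstream site of MYB15 fell below the threshold in every library that called it. With ef scores of 5 or more, 0 were gained in WT, 0 were called in WT alone at 0 h, 1 in the mutant alone at 2 h and 1 in WT alone at 2 h. With equal list lengths (the top 1372 peaks) 0 were gained in WT, 0 in the mutant, and 1 was called in WT alone at 2 h. With the window 0 were gained in WT. The window and the ef cut each leave out every peak of the far upstream site of MYB15, whatever the calls. Under the relaxed rule 2 were gained and 1 lost in WT, 3 gained in the mutant, 3 called in WT alone at 0 h, 2 in WT alone at 2 h, and 1 in the mutant alone at each time. Cutting peaks to 150 bp or asking for 50% overlap left 7 sites and the same counts. The median threshold left 5 separate sites.

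With the replicate block (mean of the counts within same-numbered pairs), 2.5 sites were gained in the mutant, 2 called in WT alone at 0 h and 1 in WT alone at 2 h. Under this paired count 0.5 site each was lost in WT, lost in the mutant and called in the mutant alone at 0 h and at 2 h, and 0.5 gene each was gained in the mutant and called in WT alone at 0 h. Leaving out 1 library at a time gave 1 to 2 sites gained in WT, 0 to 1 lost in WT, 1 to 3 gained in the mutant, 1 to 2 called in WT alone at 0 h, 0 to 2 in WT alone at 2 h, and 0 to 1 in the mutant alone at either time. It gave 0 to 1 genes gained in the mutant and 0 to 1 called in WT alone at 0 h. The 3 sites gained in the mutant needed replicate 2 at 2 h left out, and 2 in WT needed WT 0 h replicate 1 left out, the table with 136 absent numbers. Of 12 mean percentiles, 7 moved by more than 1 SD with the ef score, and 2 of the 6 that the window allows moved. Leaving out 1 of 2 libraries cannot move a mean by more than 1 SD, so it says nothing about these percentiles. Motif counts planned for sequence windows were not run. The depth behind a call is unknown, and 2 libraries per group limit every count. The cause of these shifts was not tested.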

Other observations

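Peak maxima followed the replicate number. At the MYB96 transcript end the maxima of the 4 replicate 1 libraries lay within 17 bp of each other, as did those of replicate 2, while same-group libraries lay 66 to 85 bp apart, replicate 2 always at the higher coordinate. Over the 496 regions called in all 8 libraries the median distance between maxima was 9 to 28 bp for pairs with the same replicate number and 65 to 77 bp for pairs of the same group. Replicate 2 lay at the higher coordinate in 46.2% to 48.6% of these regions, so no single direction held. The MYB87 site did not show this, with same-group maxima 11 to 37 bp apart. The cause was not tested.

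Of the 33 MYB genes with a peak, 9 were called in replicate 1 libraries alone, MYB73 among them, 11 in replicate 2 libraries alone and 13 in both. MYB17, MYB38 and MYB63 were called in all 4 replicate 2 libraries and in no replicate 1 library, and MYB25 in all 4 of replicate 1 and in none of replicate 2. These genes were named after their calls were seen.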
